A study of Mus musculus with 16 samples.

Results

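The aortas of 4 mice with 5/6 nephrectomy (5/6 Nx) were compared with the aortas of 4 sham-operated mice, and both groups ate the same diet. The groups were taken from the deposited labels, and they make up 8 of the 16 libraries of the series, whose other libraries came from 5/6 Nx mice on other diets. All mice were male C57BL/6J, a wild-type strain, and 12 weeks old at surgery. The 5/6 Nx mice lost the poles of the left kidney by ligation and then the whole right kidney, a model of CKD, and the Sham mice went through similar operations with both kidneys kept. After recovery, all 8 mice received the high-phosphate, low-protein diet (HPi-Lp, 2% phosphorus and 2.5% protein), for 30 days by the labels. The control mice therefore also carried the phosphate load and the protein restriction, and surgery was the only labelled difference. The study as a whole concerned calcification of the arterial wall in CKD and its dependence on dietary phosphate and protein. Unless another diet is named, 5/6 Nx mice are those on the HPi-Lp diet.

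The aorta is an elastic artery with an inner endothelium, a media of smooth muscle cells and an outer adventitia that holds fibroblasts, nerve endings, immune cells and fat. Kidney failure retains phosphate and uraemic solutes, raises parathyroid hormone, disturbs vitamin D, acid-base and salt balance, and promotes loss of muscle and fat. The pathways described are those through which such changes could be read in an artery: hormone responses, nutrient supply, energy metabolism, stress responses, cell division, vascular tone, clotting, and the developmental signals Notch and Wnt. Contractile, osteogenic, inflammatory, matrix and MAPK genes were not the subject.

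Whole aortas were ground, and polyadenylated RNA of each was sequenced as 1 library per mouse. Library totals were 20795568 to 24204348 counts in the Sham mice and 15665005, 57276915, 46499243 and 15013203 in 5/6 Nx replicates 1 to 4. Levels are CPM, counts scaled to the same total per library, after TMM scaling of the 16 libraries, and values are listed in the order of replicates 1 to 4. Differences are log2 fold changes of 5/6 Nx over Sham, with ± the standard error (SE) and n = 4 mice per group, from the quasi-likelihood test of edgeR, and p was adjusted by Benjamini-Hochberg over all 16513 genes tested. A number in brackets after a gene is this log2 fold change. A differentially expressed gene (DEG) had an adjusted p of at most 0.05 and at least a 2-fold change. A gene that was not a DEG could still pass the adjusted p with a smaller change, and 7089 genes passed it without the fold limit. There were 3666 DEGs, which is 22.2% of the genes tested, with 2480 upregulated (15%) and 1186 downregulated (7.18%). In 43% of the genes tested the CPM of the groups did not overlap, so a separation of 4 mice from 4 is common here. The median log2 fold change over all genes tested was -0.00275.

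The tissue label was checked against marker genes. All 8 smooth muscle markers, among them Myh11, Acta2 and Cnn1, were detected in every mouse, and all 8 were downregulated. Their summed level was 21963 to 26082 CPM in the Sham mice and 5134, 2277, 4494 and 2268 CPM in the 5/6 Nx mice. In bulk tissue, fewer cells of a type and less RNA per cell cannot be told apart. Endothelial markers summed to 824 to 1188 CPM in the Sham mice and 995 to 1224 CPM in the 5/6 Nx mice, and the groups overlapped. Of the 8, Cdh5 (1.41), Kdr (1.98) and Emcn (2.00) were upregulated and 0 downregulated, with a median of 0.83, while the abundant Pecam1 (-0.55) and Vwf (-0.38) were not DEGs. At the adjusted p alone 5 of the 8 were higher and 1 lower, against 22.7% and 20.2% of all genes. The arterial cell types of the label were therefore present in both groups, with less smooth muscle RNA in the 5/6 Nx mice.

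Markers of other cell types also differed. Counts of these markers are over the genes tested, and 15% of all genes were upregulated and 7.18% downregulated. White adipocyte markers summed to 599.6 to 1515 CPM in the Sham mice and to 6195, 5574, 5620.2 and 11588 CPM in the 5/6 Nx mice, with 7 of 8 upregulated and Lep, the leptin gene, the exception. Macrophage markers, with 8 of 8 upregulated, went from 232 to 362 CPM in Sham mice to 779.7, 2598, 1624 and 1400.5 CPM. Mast cell markers were at 20.5 to 45.8 CPM against 151 to 182 CPM (5 of 6 upregulated). Sympathetic neuron markers were at 2.73 to 5.10 CPM in the Sham mice, and at 1521, 23.9, 253 and 1167 CPM in the 5/6 Nx mice. Of the 8 listed, 5 were tested and all 5 were upregulated. Th, Dbh and Snap25 were at or near 0 in the Sham mice and in 5/6 Nx replicate 2. The summed neuron markers were highest in 5/6 Nx replicates 1 and 4, which were also the libraries of lowest total. Schwann cell markers (31.1 to 44.3 against 570.2, 58.8, 101 and 148 CPM) were highest in replicate 1. Summed pancreas markers (4.90 to 7.04 against 13.9 to 142 CPM) did not overlap between the groups, with 2 of 2 tested genes upregulated. The same held for lung markers (2.12 to 3.36 against 13.5 to 76.6 CPM), also with 2 of 2. Adrenal and chromaffin markers (6.24 to 8.70 against 98.0, 14.2, 28.7 and 61.0 CPM) did not overlap either, with 3 of 5 upregulated. Kidney tubule markers (2.44 to 5.51 against 9.21 to 27.5 CPM) were apart too, with Aqp2 upregulated and Cdh16 downregulated among 3 tested. The adrenal and chromaffin markers had the order of the neuron markers among the 5/6 Nx mice. The kidney genes Umod and Slc34a1 were at 0 in all 8 mice. Among T cell and thymocyte markers (15.2 to 96.9 against 5.14 to 10.9 CPM) 4 of 7 tested were downregulated. All 5 erythroid genes were downregulated as well (379 to 3993 against 188 to 379 CPM). The part of these tissue differences in the results below was not tested. For some results, fits without replicates 1 and 4 or with marker levels as a covariate are given. The summed white adipocyte and neuron markers did not overlap between the groups, so a fit with either cannot tell tissue from surgery. Replicate 3, kept in the fit without replicates 1 and 4, still had 253 CPM of neuron markers.

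**Figure D1:**
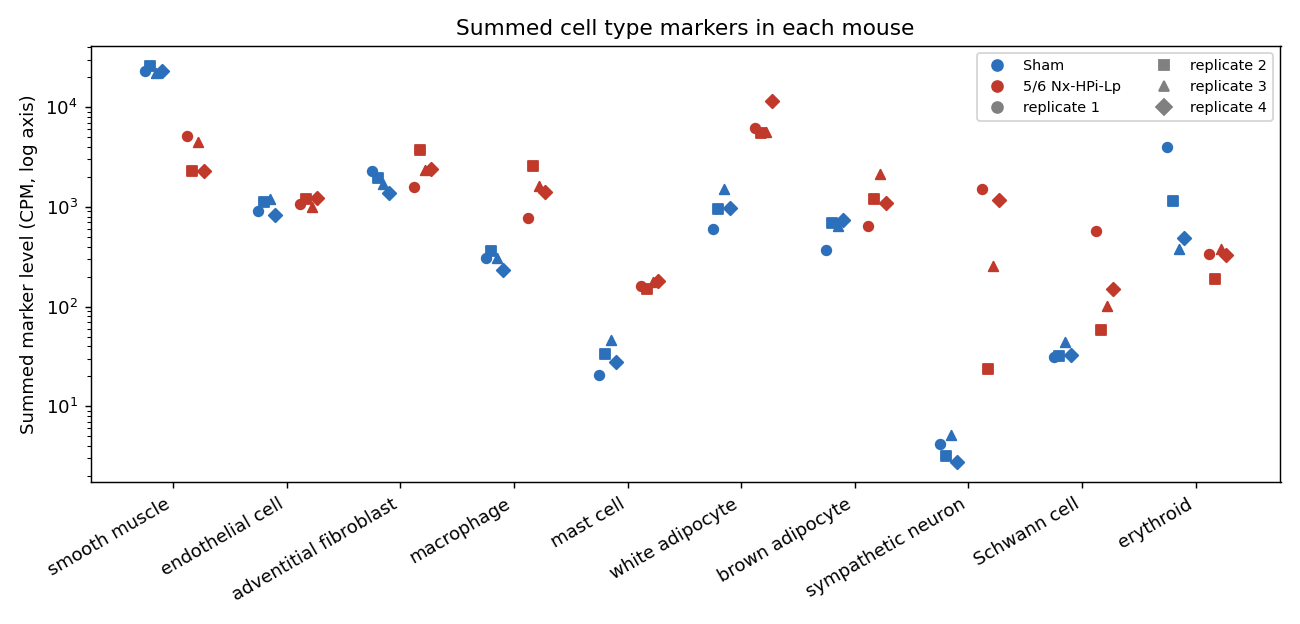
Summed level (CPM, log axis) of the marker genes of 10 cell types in each mouse; each point is 1 mouse, blue for Sham and red for 5/6 Nx-HPi-Lp, and the symbol gives the replicate. Smooth muscle markers are at 21963 to 26082 CPM in the Sham mice and at most 5134 CPM in the 5/6 Nx mice, and neuron markers spread from 23.9 to 1521 CPM among the 5/6 Nx mice.

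Across 33 pathway lists with 805 genes, the shift ranged from a median log2 fold change of 2.29 for the mitochondrially encoded respiratory chain genes to -0.90 for smooth muscle ion channels. Lists with medians above 1 were those of the cell cycle, triglyceride storage and lipolysis, metal handling, cholesterol efflux and glucocorticoid response. The lists of ion channels, heat shock proteins, clock genes and Wnt signalling had the lowest medians. Chaperones of the endoplasmic reticulum, the proteasome and the nuclear genes of the respiratory chain held hardly any DEGs.

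**Figure D2:**
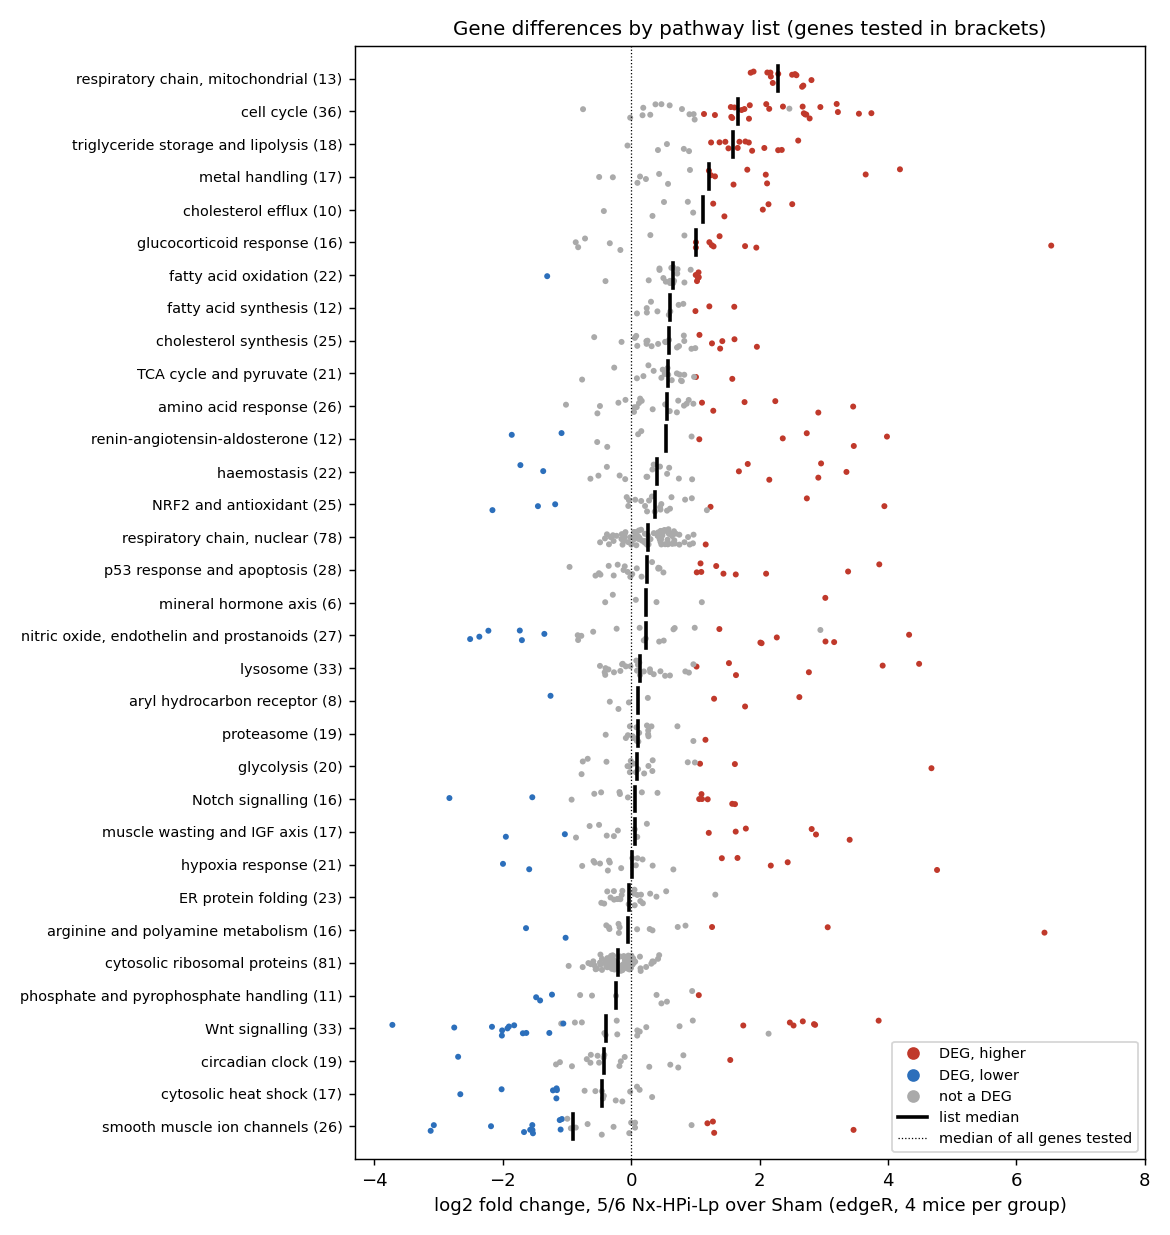
Log2 fold change of 5/6 Nx-HPi-Lp over Sham (x axis) for each gene tested in 33 pathway lists (y axis, number of genes tested in brackets); points are genes, red for upregulated DEGs, blue for downregulated DEGs and grey for the rest, black bars are list medians and the dotted line is the median of all genes tested. The mitochondrially encoded list lies between 1.86 and 2.81, and the ion channel list has its median at -0.90.

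Genes that store and release fat were upregulated together. Of 18 genes tested for triglyceride storage and lipolysis, 13 were upregulated DEGs (72.2%, against 15% of all genes) and 0 were downregulated, with a median of 1.59. Lpl (ENSMUSG00000015568, chromosome 8, 68880491 to 68907448, mm10), the lipase that frees fatty acids from lipoproteins, was at 155, 235, 464 and 234 CPM in the Sham mice and 1378, 1142, 1515 and 2322 CPM in the 5/6 Nx mice. The lowest 5/6 Nx mouse was above the highest Sham mouse, and the log2 fold change was 2.60 ± 0.35, adjusted p = 0.000326. Angptl4, a secreted inhibitor of that lipase, was at 22.2, 23.1, 10.1 and 20.5 CPM and 28.6, 128, 86.6 and 129.97 CPM. Replicate 1 lay just above the Sham mice and the other three well above them (2.35 ± 0.44, adjusted p = 0.00218). The lipases Pnpla2 (1.51) and Lipe (2.07), their co-activator Abhd5 (1.78), the fatty acid receptor Cd36 (2.29) and both diacylglycerol acyltransferases, Dgat1 (1.88) and Dgat2 (1.47), were also upregulated. Plin4, a droplet coat protein, had a log2 fold change of -0.06 and was not a DEG. The genes of this list are abundant in fat cells, and the white adipocyte markers above separated the groups in the same order. Their part in the result was not tested. A fit with those markers as a covariate left 0 DEGs among all genes. Because the markers separate the groups, that fit cannot tell fat cells from surgery.

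In fatty acid synthesis, 3 of 12 genes were upregulated (25%, against 15% of all genes) and 0 downregulated, with a median of 0.60. At the adjusted p alone 7 were higher and 0 lower, against 22.7% and 20.2% of all genes. Acacb, the acetyl-CoA carboxylase that lies at the mitochondrion, was at 94.7, 138, 188 and 148 CPM in the Sham mice and 362, 280.4, 326 and 303 CPM in the 5/6 Nx mice (1.22 ± 0.19, adjusted p = 0.000783). The groups did not overlap. Mlxipl, a glucose-sensing transcription factor, had a log2 fold change of 1.00 ± 0.19, adjusted p = 0.00237, at the edge of the 2-fold limit, and lost the call without Sham replicates 1 (0.91) or 2 (0.95) or 5/6 Nx replicate 3 (0.83). Fasn, the fatty acid synthase, was at 1185, 2376, 2518 and 1855 CPM and 1321, 2937, 3637 and 1163 CPM. The groups overlapped throughout, the log2 fold change was 0.24 ± 0.38, adjusted p = 0.637, and without 5/6 Nx replicate 3 it was -0.06.

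Some genes of cholesterol synthesis and of efflux were upregulated. Of 25 genes of synthesis and uptake, 6 were upregulated (24%, against 15% of all genes) and 0 downregulated, with a median of 0.59. At the adjusted p alone 14 were higher and 1 lower, against 22.7% and 20.2% of all genes. Hsd17b7, an enzyme of the later steps, was at 3.62, 5.33, 3.83 and 3.08 CPM in the Sham mice and 21.7, 8.41, 13.9 and 15.5 CPM in the 5/6 Nx mice (1.96 ± 0.30, adjusted p = 0.00075). Mvd, which acts in the mevalonate steps, was at 8.67, 8.22, 10.9 and 6.48 CPM and 22.8, 22.3, 22.8 and 33.0 CPM (1.61 ± 0.19, adjusted p = 0.000187). All 5/6 Nx mice exceeded all Sham mice for both genes. Without 5/6 Nx replicates 1 and 4, in which neuron markers were high, the list had 3 upregulated genes. It had 2 on log2(FPKM + 1), and 1 upregulated and 1 downregulated with the neuron markers as a covariate.

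Of 10 genes for cholesterol efflux and its sterol-sensing nuclear receptor LXR, 5 were upregulated (50%, against 15% of all genes) and 0 downregulated, with a median of 1.12. Apoe (ENSMUSG00000002985, chromosome 7, 19696109 to 19699188), the apolipoprotein that carries cholesterol out of cells and tissue, was at 688, 706, 674 and 559 CPM in the Sham mice and 2148, 3553, 2446 and 3013 CPM in the 5/6 Nx mice. The 5/6 Nx mice were all at least about 3 times the highest Sham mouse (2.14 ± 0.18, adjusted p = 3.36e-05). Scarb1, the HDL receptor, was at 16.1, 16.4, 21.7 and 15.6 CPM and 70.7, 104, 89.3 and 119 CPM (2.51 ± 0.18, adjusted p = 1.71e-05). The transporters Abca1 (1.45) and Abcg1 (2.05) and the receptor gene Nr1h3 (1.28) made up the rest of the DEGs. Apoe, Abca1 and Abcg1 are also expressed by macrophages, whose markers were higher in every 5/6 Nx mouse.

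Respiratory chain genes of the mitochondrial genome were all upregulated, and those of the nucleus nearly all stayed within 2-fold. All 13 mitochondrially encoded subunits were upregulated (100%, against 15% of all genes), with log2 fold changes of 1.86 (mt-Co3) to 2.81 (mt-Nd3) and a median of 2.29. Some of these genes overlap on the mitochondrial genome, such as mt-Atp6 and mt-Atp8, and their single values are uncertain. mt-Co1, a subunit of cytochrome c oxidase, was at 13774, 12784, 17897 and 19839.9 CPM in the Sham mice and 103675, 78125, 96497 and 85037 CPM in the 5/6 Nx mice (2.55 ± 0.23, adjusted p = 5.01e-05). mt-Nd5, a subunit of complex I, was at 2792, 2949, 4529 and 4394 CPM and 26824, 18798, 22287 and 22644 CPM (2.68 ± 0.23, adjusted p = 4.07e-05). For both genes the lowest 5/6 Nx mouse was more than 3-fold above the highest Sham mouse, and mt-Co3 was the one gene of the list whose groups overlapped. Of 78 nuclear genes of the same complexes, 1 was a DEG, Cox8b (1.16 ± 0.31, adjusted p = 0.0125), which is also a brown adipocyte marker. DEGs made up 1.28% of the nuclear list, against 22.2% of all genes, and its median was 0.27. At the adjusted p alone 34 of its genes were higher and 4 lower, against 22.7% and 20.2% of all genes. Uqcrq (0.91) of complex III and Cox5a (0.97) of complex IV were among the higher ones. Without 5/6 Nx replicate 1, 5 nuclear genes were DEGs, and 0 were without 5/6 Nx replicate 3 or Sham replicate 1. Mitochondrially encoded genes took 4.18% to 6.34% of all counts in the Sham mice and 19.3% to 27.1% in the 5/6 Nx mice, 9.502% to 29.0% in the 5/6 Nx mice on the HPi-Hp diet and 14.2% to 21.1% in those on the LPi-Lp diet. A high share of these transcripts is also a common sign of degraded or stressed tissue, and its part in the result was not tested. With these genes left out, 3700 other genes were DEGs.

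**Figure D3:**
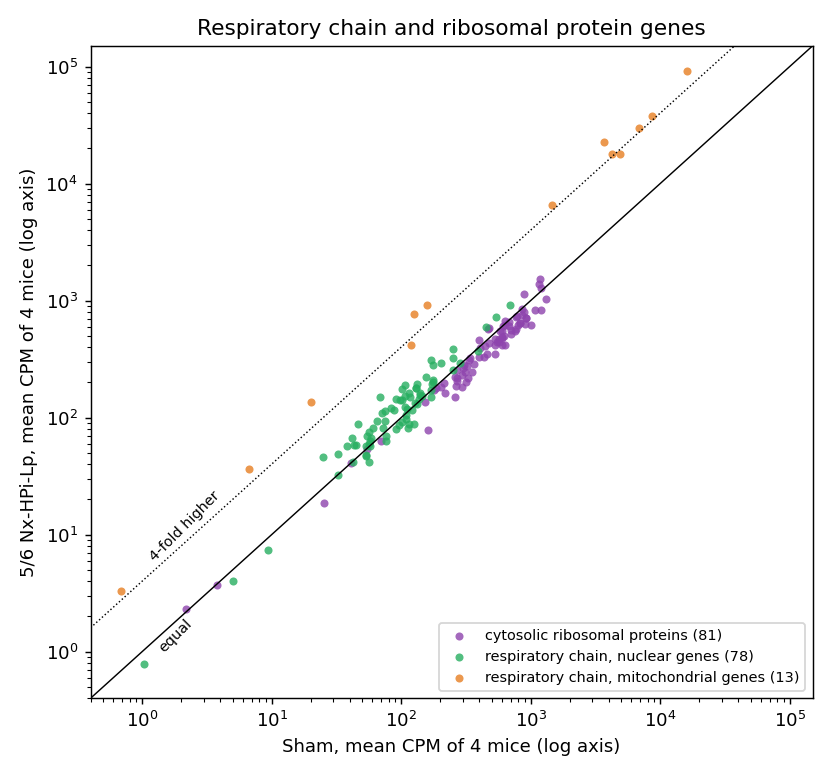
Mean CPM of 4 Sham mice (x axis, log) against mean CPM of 4 5/6 Nx-HPi-Lp mice (y axis, log) for each gene of 3 lists; the solid line marks equal levels and the dotted line a 4-fold higher level. The 13 mitochondrially encoded genes lie near the dotted line, and the 78 nuclear and 81 ribosomal protein genes lie near the solid line.

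Genes of fuel oxidation lay near the 2-fold limit. Of 22 fatty acid oxidation genes, 5 were upregulated and 1 downregulated, against 15% and 7.18% of all genes, with a median of 0.65. Among the upregulated ones were Cpt2 (1.05 ± 0.22, adjusted p = 0.00408), which completes fatty acid entry, and Etfb (1.04 ± 0.18, adjusted p = 0.00136), which passes the electrons on. These calls sat at the 2-fold limit: 0 genes were upregulated without Sham replicate 1 or under total-count scaling, 1 without 5/6 Nx replicate 3, 2 without Sham replicate 4 and 3 without 5/6 Nx replicate 2. Of 21 genes of the TCA cycle and pyruvate entry, 2 were upregulated (9.52%, against 15% of all genes) and 0 downregulated. They were Pcx (1.57 ± 0.20, adjusted p = 0.00028), the pyruvate carboxylase, and Dlat (1.01 ± 0.18, adjusted p = 0.00193), a subunit of pyruvate dehydrogenase. At the adjusted p alone 13 were higher and 1 lower, against 22.7% and 20.2% of all genes. Only Pcx was left as a call without Sham replicate 1, where Dlat had 0.85, Sham replicate 4 (0.99) or 5/6 Nx replicate 3 (0.90). In glycolysis 3 of 20 genes were upregulated (15%, the share of all genes too) and 0 downregulated, with a median of 0.09. Ldha, the lactate dehydrogenase of tissues that ferment, was at 296, 328, 389 and 319 CPM and 419, 806, 881 and 598 CPM (1.07 ± 0.21, adjusted p = 0.00288). Ldha lost the call without 5/6 Nx replicate 2 (0.99) or 3 (0.94) and under total-count scaling (0.93). Pkm, pyruvate kinase, had a log2 fold change of -0.03 and was not a DEG.

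Ribosomal protein genes stayed within 2-fold. In edgeR 0 of 81 tested were DEGs, while at the adjusted p alone 30 were lower (20.2% of all genes were) and 1, Rpsa, was higher. The median was -0.20, and the range ran from -0.97 (Rpl7a) to 0.44 (Rpsa). Without Sham replicate 1, 2 or 4 or 5/6 Nx replicate 1 or 3, 1 gene of the list was downregulated. Many of these genes have processed pseudogenes that can share reads, so single values are uncertain.

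Many targets of glucocorticoids, the adrenal stress hormones, were upregulated. Of 16 genes, 9 were upregulated DEGs (56.2%, against 15% of all genes) and 0 downregulated, with a median of 1.01. Hsd11b1, the enzyme that makes active glucocorticoid inside cells, was at 26.7, 37.0, 39.0 and 31.6 CPM in the Sham mice and 115, 105, 134 and 146 CPM in the 5/6 Nx mice (1.95 ± 0.15, adjusted p = 2.55e-05). Every 5/6 Nx mouse was more than 2-fold above every Sham mouse. Fkbp5, a chaperone of the receptor and a sensitive target, was at 23.7, 37.7, 119 and 35.4 CPM and 215, 166, 135 and 192 CPM. Sham replicate 3 approached the lowest 5/6 Nx mouse, and the log2 fold change was 1.77 ± 0.45, adjusted p = 0.0101. Tsc22d3 (1.38), known as GILZ, and Glul (1.28), glutamine synthetase, were further targets that rose. The receptor itself, Nr3c1, had a log2 fold change of -0.83 ± 0.09, adjusted p = 0.000119, short of the 2-fold limit. Lcn2, an iron-siderophore binder of neutrophils and injured epithelia, had the largest change of the list, from 0.963, 1.79, 1.35 and 0.553 CPM to 11.8, 160.5, 142 and 102 CPM (6.54 ± 0.79, adjusted p = 0.000189). Klf9, Klf15, Zbtb16 and Errfi1, which are targets as well, were not DEGs (log2 fold changes of -0.72 to 0.30). Without Sham replicate 4, 5 genes were upregulated, and without 5/6 Nx replicates 1 and 4, 5 were upregulated and Fkbp5 was at 1.55 with an adjusted p of 0.0506. With the neuron markers as a covariate 2 were upregulated and 1 downregulated, and under total-count scaling 6 and 1.

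Clock genes varied widely within each group. Arntl, the core activator BMAL1, was at 40.7, 25.8, 2.12 and 11.9 CPM in the Sham mice and 5.80, 6.06, 17.1 and 6.84 CPM in the 5/6 Nx mice, and Dbp, a clock output, at 26.97, 54.1, 179 and 309.6 CPM and 138, 79.3, 13.6 and 109 CPM. Within the Sham mice Dbp was high in the replicates where Arntl was low. Neither was a DEG (Arntl -1.11 ± 0.70, adjusted p = 0.232; Dbp -0.69 ± 0.78, adjusted p = 0.509), but without Sham replicate 3 Arntl was at -1.51 with an adjusted p of 0.0408, and without Sham replicate 4 Dbp was at 0.02. Of 19 clock genes, 2 were DEGs (10.5%, against 22.2% of all genes). Npas2, a partner of Arntl's protein, was downregulated with overlapping groups (-2.70 ± 0.71, adjusted p = 0.0128). Bhlhe40, a repressor that also answers to hypoxia and stress, was upregulated from 21.5, 26, 46.6 and 49.6 CPM to 83.3, 134, 101 and 84.9 CPM (1.54 ± 0.28, adjusted p = 0.00179). The hour of dissection was not given in the sources used here, so time of day and surgery cannot be told apart for these genes.

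Igf1 and several of its binding proteins were upregulated, and Fbxo32, a gene of muscle atrophy, was downregulated. The list of 17 genes had 6 upregulated and 2 downregulated (15% and 7.18% of all genes), with a median of 0.055 that was below 0 in several other fits, among them without 5/6 Nx replicate 2 (-0.16), under total-count scaling (-0.08) and with DESeq2 (-0.07). Igf1 (ENSMUSG00000020053, chromosome 10, 87858265 to 87937042), the growth factor, was at 25.2, 22.5, 21.8 and 19.3 CPM in the Sham mice and 92.0, 218, 125 and 166 CPM in the 5/6 Nx mice. The 5/6 Nx mice lay 3-fold or more above the Sham mice (2.81 ± 0.24, adjusted p = 4.47e-05). Ghr, the growth hormone receptor, was upregulated as well (1.79 ± 0.20, adjusted p = 0.000138), while Igf1r, the IGF receptor, was downregulated (-1.03 ± 0.14, adjusted p = 0.000372). Without 5/6 Nx replicate 2 the list had 1 downregulated gene. Of 7 binding proteins tested, 4 were upregulated: Igfbp3 (2.88), Igfals (3.40), Igfbp2 (1.63) and Igfbp4 (1.21). Igfbp3, the main carrier of IGF in blood, was at 9.13, 10.3, 8.75 and 15.8 CPM and 79.6, 77.0, 41.1 and 115 CPM. Fbxo32, the ubiquitin ligase atrogin-1 that rises in wasting skeletal muscle, was at 87.4, 82.4, 88.7 and 90.6 CPM in the Sham mice and 22.0, 18.0, 23.6 and 23.5 CPM in the 5/6 Nx mice. The spread within each group was small and the groups were about 4-fold apart (-1.95 ± 0.11, adjusted p = 1.22e-05).

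Part of the response to amino acid shortage was upregulated. Asns, asparagine synthetase and a classical target of the transcription factor ATF4, was at 3.01, 4.28, 5.77 and 2.33 CPM in the Sham mice and 33.9, 24.4, 24.8 and 28.4 CPM in the 5/6 Nx mice (2.91 ± 0.27, adjusted p = 5.46e-05). All 4 5/6 Nx mice were above 24 CPM and no Sham mouse was above 6 CPM. Psat1 (2.24 ± 0.23, adjusted p = 8.34e-05) of serine synthesis and Slc1a5 (1.103 ± 0.18, adjusted p = 0.00116), a glutamine transporter, were also upregulated. Slc7a11, the cystine importer, was scarce in the Sham mice (0.270, 0.481, 0.135 and 0.356 CPM) and reached 0.946, 6.98, 4.02 and 1.23 CPM in the 5/6 Nx mice (3.46 ± 0.71, adjusted p = 0.00367). Other targets were not DEGs, among them Atf4 itself (0.16), Ddit3 (0.05), Trib3 (0.60), Slc7a5 (0.12) and Atf5 (-0.49). The list thus had 6 upregulated genes of 26 (23.1%, against 15% of all genes), with a median of 0.56. At the adjusted p alone 11 were higher and 1 lower, against 22.7% and 20.2% of all genes. On log2(FPKM + 1) and on log2(FPKM + 0.1), 3 were upregulated. Both groups ate the low-protein diet.

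Heat shock proteins were downregulated, while chaperones of the endoplasmic reticulum were not called. Of 17 cytosolic genes, 6 were downregulated (35.3%, against 7.18% of all genes lower) and 0 upregulated, with a median of -0.46. Hspb8, a small chaperone of muscle, was at 159.9, 199.6, 193 and 158 CPM in the Sham mice and 81.9, 70.3, 78.6 and 74.4 CPM in the 5/6 Nx mice (-1.17 ± 0.11, adjusted p = 5.94e-05). Hspb1 (-1.16 ± 0.19, adjusted p = 0.0011) and Cryab (-1.16 ± 0.14, adjusted p = 0.000204), its relatives, fell by a similar amount, and the groups did not overlap for any of them. Hspa1a, the inducible HSP70, was at 36.1, 198, 46.1 and 35.5 CPM and 12.04, 9.77, 16.7 and 9.22 CPM (-2.66 ± 0.57, adjusted p = 0.0045). Sham replicate 2 stood far above the other Sham mice, and Hspa1b, a nearly identical neighbouring copy, showed the same pattern (-2.02 ± 0.55, adjusted p = 0.0142). Reads of this pair cannot be told apart with certainty, and without 5/6 Nx replicates 1 and 4 Hspa1b was at -1.82 with an adjusted p of 0.0868. Small heat shock proteins are also abundant in smooth muscle, whose markers were lower in every 5/6 Nx mouse. In the endoplasmic reticulum list, 0 of 23 genes were DEGs in edgeR, against 22.2% of all genes, with a median of -0.04. At the adjusted p alone 1 was higher and 1 lower, against 22.7% and 20.2% of all genes. Hspa5, the main chaperone BiP, was at -0.22. Without 5/6 Nx replicate 1, 1 gene of that list was upregulated.

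The promoters of the downregulated heat shock genes are shown because heat shock factor binds inverted GAA repeats. The motif searched was GAANNTTC or TTCNNGAA, which reads the same on both strands and whose forms may overlap each other. The windows reach from 250 bases before to 50 bases after the RefSeq start (GRCm38.p6, the mm10 assembly), and 12 of 17 genes matched a window. In capitals is each match in Hspa1a (chr17:34972107-34972406, minus strand), Hspb1 (chr5:135887669-135887968, plus strand) and Hspb8 (chr5:116422815-116423114, minus strand). The motif was in 8 of the 12 windows (66.7%), in all 5 downregulated genes with a window, and in 15.1% of 32851 promoters of the same length. Among the 5 are the nearly identical copies Hspa1a and Hspa1b, with 1 match each at the same distance from the start. A match is a description of the letters, not evidence of a bound site.
Hspa1a: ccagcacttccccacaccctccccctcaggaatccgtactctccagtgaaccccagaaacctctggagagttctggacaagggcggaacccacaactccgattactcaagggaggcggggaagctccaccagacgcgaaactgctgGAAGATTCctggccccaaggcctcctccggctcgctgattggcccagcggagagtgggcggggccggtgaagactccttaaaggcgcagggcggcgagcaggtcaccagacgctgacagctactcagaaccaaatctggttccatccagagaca
Hspb1: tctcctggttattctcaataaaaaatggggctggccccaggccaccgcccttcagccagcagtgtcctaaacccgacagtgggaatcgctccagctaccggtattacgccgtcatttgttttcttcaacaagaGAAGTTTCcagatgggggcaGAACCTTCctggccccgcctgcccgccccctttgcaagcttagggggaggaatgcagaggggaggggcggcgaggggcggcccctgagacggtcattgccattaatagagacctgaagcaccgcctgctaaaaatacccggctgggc
Hspb8: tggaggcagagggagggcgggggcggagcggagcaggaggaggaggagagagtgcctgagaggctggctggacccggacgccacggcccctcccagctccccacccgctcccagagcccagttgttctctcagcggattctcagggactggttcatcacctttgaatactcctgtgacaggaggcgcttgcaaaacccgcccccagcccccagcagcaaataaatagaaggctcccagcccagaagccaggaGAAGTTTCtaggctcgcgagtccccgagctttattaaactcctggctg

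Metal handling genes were upregulated. Of 17 genes, 9 were upregulated DEGs (52.9%, against 15% of all genes) and 0 downregulated, with a median of 1.21. Mt1 (ENSMUSG00000031765, chromosome 8, 94179082 to 94180327), a metallothionein that buffers zinc and copper, was at 137, 227, 313 and 172 CPM in the Sham mice and 362, 969, 951 and 587 CPM in the 5/6 Nx mice (1.81 ± 0.34, adjusted p = 0.00222). Replicate 1 was the lowest of the 5/6 Nx mice and was close to the highest Sham mouse. Mt2 went from 0.539, 0.874, 0.767 and 0.791 CPM to 4.92, 13.3, 13.1 and 4.64 CPM (3.65 ± 0.44, adjusted p = 0.000184). Mt3, the metallothionein of the nervous system, was at 0.462, 0.437, 0.316 and 0.0791 CPM and 12.5, 1.26, 2.34 and 6.97 CPM (4.19 ± 0.81, adjusted p = 0.00263), with the highest levels in the replicates with high neuron markers. Without replicates 1 and 4, its log2 fold change was 2.52. Among iron and copper genes, Slc31a1 (2.10), the copper importer, Trf (2.12), transferrin, Slc40a1 (1.59), the iron exporter, Cp (1.31), ceruloplasmin, Heph (1.21), hephaestin, and Ftl1 (1.24), ferritin light chain, rose. Fth1, ferritin heavy chain, had a log2 fold change of -0.50 and was not a DEG.

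The 3 metallothionein promoters are shown because these neighbours on chromosome 8 were all upregulated and metal-responsive factor 1 binds a short repeated core. The core searched was TGCACNC or TGCGCNC on both strands, and overlapping matches were merged into 1 stretch of capitals. The RefSeq windows (GRCm38.p6) are chr8:94178839-94179138, chr8:94172368-94172667 and chr8:94152357-94152656, all on the plus strand. The core occurred 3 times in Mt1, 4 times in Mt2 and 1 time in Mt3. It was in 4 of the 6 windows found for 7 metallothionein and zinc genes (66.7%) and in 25.7% of 32851 promoters.
Mt1: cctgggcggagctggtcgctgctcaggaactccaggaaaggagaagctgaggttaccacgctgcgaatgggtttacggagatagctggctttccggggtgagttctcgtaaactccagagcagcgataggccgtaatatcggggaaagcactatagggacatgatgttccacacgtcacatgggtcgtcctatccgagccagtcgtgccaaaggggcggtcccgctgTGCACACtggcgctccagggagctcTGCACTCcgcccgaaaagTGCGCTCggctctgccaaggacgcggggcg
Mt2: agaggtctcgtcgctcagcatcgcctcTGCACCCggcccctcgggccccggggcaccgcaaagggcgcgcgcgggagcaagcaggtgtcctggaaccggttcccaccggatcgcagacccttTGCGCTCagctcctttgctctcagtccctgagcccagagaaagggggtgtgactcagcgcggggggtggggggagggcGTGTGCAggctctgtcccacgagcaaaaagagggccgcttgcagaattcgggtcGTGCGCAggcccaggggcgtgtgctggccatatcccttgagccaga
Mt3: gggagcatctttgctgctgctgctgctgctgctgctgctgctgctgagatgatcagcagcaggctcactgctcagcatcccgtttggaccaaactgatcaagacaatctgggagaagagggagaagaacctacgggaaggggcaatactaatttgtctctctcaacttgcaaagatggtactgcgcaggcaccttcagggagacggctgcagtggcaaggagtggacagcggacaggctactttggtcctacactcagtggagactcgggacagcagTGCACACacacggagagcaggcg

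Antioxidant and hypoxia genes did not move as blocks. Hmox1, haem oxygenase, was at 6.17, 9.44, 9.02 and 7.23 CPM in the Sham mice and 39.0, 155, 222 and 55.9 CPM in the 5/6 Nx mice (3.94 ± 0.53, adjusted p = 0.000343). It was higher in every 5/6 Nx mouse than in any Sham mouse, although the 5/6 Nx mice differed more than 5-fold among themselves. Gpx3, the secreted glutathione peroxidase, was at 206, 200.1, 244 and 203 CPM and 1142, 1560.5, 1183 and 1603 CPM (2.74 ± 0.15, adjusted p = 1.22e-05). Catalase, Cat, was also upregulated (1.24). Gstm1, a glutathione transferase, went the other way, from 741, 665, 800.1 and 755 CPM to 237, 90.1, 149 and 160.3 CPM (-2.16 ± 0.26, adjusted p = 0.000173). Nqo1 (-1.45), a standard target of the stress factor NRF2, and Sod3 (-1.18), the extracellular superoxide dismutase, were downregulated, and Gclc (0.22) and Gclm (0.16), which make glutathione, were not DEGs. Of 25 genes, 3 were upregulated and 3 downregulated, against 15% and 7.18% of all genes, and 5 were upregulated without Sham replicate 3 or without 5/6 Nx replicates 1 and 4.

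Vegfa, the endothelial growth factor, was upregulated from 60.3, 63.8, 72.4 and 61.8 CPM to 122, 138, 195 and 208 CPM (1.41 ± 0.17, adjusted p = 0.000199). Bnip3 (1.66), a mitophagy receptor, rose as well. Car9 (-1.998 ± 0.52, adjusted p = 0.0118), a hypoxia-induced carbonic anhydrase, and Adm (-1.59 ± 0.21, adjusted p = 0.000296), the dilator adrenomedullin, are hypoxia targets too and fell. Car12 (4.76) and Nos2 (2.44) rose from levels near the detection floor in the Sham mice (at most 0.20 and 1.03 CPM). The 21 hypoxia genes had 5 upregulated and 2 downregulated, against 15% and 7.18% of all genes, and a median of 0.02.

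Genes of dividing cells were upregulated, above all those of mitosis. Of 20 mitosis genes, 18 were upregulated (90%, against 15% of all genes) with a median of 2.57. Of 16 replication genes, 5 were upregulated (31.2%) with a median of 0.69. Cdk1, the kinase that starts mitosis, was at 0.462, 1.14, 0.632 and 1.07 CPM in the Sham mice and 1.39, 26.1, 9.36 and 5.55 CPM in the 5/6 Nx mice (3.74 ± 0.78, adjusted p = 0.00385). Bub1, a spindle checkpoint kinase, was at 0.0771, 0.175, 0.226 and 0.633 CPM and 1.45, 3.98, 2.30 and 2.39 CPM (3.22 ± 0.63, adjusted p = 0.00264). Mki67, the proliferation marker, was at 2.31, 4.33, 1.94 and 4.86 CPM and 6.998, 39.2, 19.4 and 17.9 CPM (2.69 ± 0.50, adjusted p = 0.00208). For these genes 5/6 Nx replicate 2 was the highest and replicate 1 the lowest of the 5/6 Nx mice, the order of the macrophage markers at both ends. Pcna (0.19), the replication clamp, and Mcm2 (0.30), a helicase subunit, were not DEGs. Without Sham replicate 1, 15 of the 36 genes were upregulated instead of 23, and on log2(FPKM + 1), where low genes change less, 7 were.

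Promoters of 3 mitosis genes are shown because genes of this phase share a CCAAT box and a cell cycle homology region, through which the MuvB and B-MYB complex acts. The letters searched on both strands were CCAAT, and TTTGAA or TTCGAA, and neighbouring matches can share a letter. Of 20 mitosis genes, 16 matched a RefSeq window (GRCm38.p6), and CCAAT was in 15 (93.8%) and TTTGAA or TTCGAA in 13 (81.2%). The shares over 32851 promoters were 37.4% and 19.2%, and CCAAT was in 8 of 14 replication genes (57.1%). The windows are chr10:69352863-69353162, chr9:70421505-70421804 and chr2:127831810-127832109, all on the minus strand, with matches of either motif in capitals. Ccnb2, a mitotic cyclin, was upregulated too (2.95).
Cdk1: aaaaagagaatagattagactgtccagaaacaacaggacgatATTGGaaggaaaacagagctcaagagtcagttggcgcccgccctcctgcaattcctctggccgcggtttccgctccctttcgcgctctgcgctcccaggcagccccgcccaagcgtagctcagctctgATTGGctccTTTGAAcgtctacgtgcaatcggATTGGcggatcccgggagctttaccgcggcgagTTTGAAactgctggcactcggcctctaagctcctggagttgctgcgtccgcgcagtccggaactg
Ccnb2: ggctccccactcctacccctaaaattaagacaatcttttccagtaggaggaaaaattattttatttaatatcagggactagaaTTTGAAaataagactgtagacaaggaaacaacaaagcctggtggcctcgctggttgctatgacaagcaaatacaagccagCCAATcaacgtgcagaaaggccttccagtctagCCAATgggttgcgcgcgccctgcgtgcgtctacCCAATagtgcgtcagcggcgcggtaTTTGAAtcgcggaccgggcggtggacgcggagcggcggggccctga
Bub1: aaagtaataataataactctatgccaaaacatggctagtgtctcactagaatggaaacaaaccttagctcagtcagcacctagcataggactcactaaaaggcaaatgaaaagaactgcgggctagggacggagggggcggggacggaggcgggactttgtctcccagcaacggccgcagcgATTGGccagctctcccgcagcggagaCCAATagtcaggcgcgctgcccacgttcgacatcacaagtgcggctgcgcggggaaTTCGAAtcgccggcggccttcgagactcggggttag

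Of 28 genes of the p53 response and apoptosis, 9 were upregulated (32.1%, against 15% of all genes) and 0 downregulated, with a median of 0.24. On log2(FPKM + 1) 2 were upregulated, and under total-count scaling 6 were upregulated and 1 downregulated. Cdkn1a, the cell cycle inhibitor p21, was at 55.7, 74.3, 39.5 and 43.5 CPM in the Sham mice and 61.7, 93.5, 162 and 96.2 CPM in the 5/6 Nx mice, and replicate 1 lay among the Sham mice. The difference was 1.01 ± 0.29, adjusted p = 0.0176, and the call was lost without Sham replicate 3 (0.87), Sham replicate 4 (0.91) or 5/6 Nx replicate 3 (0.72). Pmaip1 (3.38), the death gene NOXA, and Ckap2 (3.86), a spindle protein, had the largest changes, from under 1 CPM in each Sham mouse. Mdm2 (0.16), Ccng1 (-0.01) and Bbc3 (-0.10), which are direct p53 targets, were not DEGs. Bcl2, the survival gene, had a log2 fold change of -0.96 and was not a DEG, and 1 gene of the list was downregulated without Sham replicate 3, Sham replicate 4 or 5/6 Nx replicate 1.

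Phosphate transporters changed in opposite directions. Slc20a1 (ENSMUSG00000027397, chromosome 2, 129198764 to 129211616), the importer PiT-1, was at 34.8, 30.2, 28.8 and 40.7 CPM in the Sham mice and 77.4, 60.8, 56.7 and 74.4 CPM in the 5/6 Nx mice. The groups did not overlap, and the log2 fold change was 1.05 ± 0.15, adjusted p = 0.000526, at the 2-fold limit. It was 0.98, 0.96 and 0.99 without Sham replicate 2, Sham replicate 3 and 5/6 Nx replicate 1, and 0.86 without 5/6 Nx replicates 1 and 4, so the call rests on where that limit lies. Slc20a2 (ENSMUSG00000037656, chromosome 8, 22476788 to 22569612), the importer PiT-2, fell from 117, 118, 98.2 and 113 CPM to 49.7, 48.5, 43.9 and 40.7 CPM (-1.23 ± 0.11, adjusted p = 4.57e-05). Xpr1, the exporter, fell from 143, 142, 128 and 140.3 CPM to 55.0, 46.2, 51.3 and 47.2 CPM (-1.42 ± 0.10, adjusted p = 1.66e-05). The groups were far apart for both genes, with little spread inside each group. Entpd1, which removes extracellular ATP, was downregulated as well (-1.48 ± 0.15, adjusted p = 6.97e-05). Enpp1, the source of pyrophosphate, was at 42.3, 42.1, 45.9 and 33.7 CPM and 20.05, 31.0, 23.7 and 28.6 CPM, lower in each 5/6 Nx mouse but short of the fold limit (-0.61 ± 0.15, adjusted p = 0.00921). Ank, the pyrophosphate exporter, had a log2 fold change of -0.24 and was not a DEG. The sodium-phosphate cotransporters of kidney and gut, Slc34a1, Slc34a2 and Slc34a3, had too few counts to be tested.

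Of the hormones that set phosphate and calcium, 6 of 12 genes were testable. Vdr, the vitamin D receptor, was at 0.424, 0.787, 0.857 and 0.593 CPM in the Sham mice and 2.65, 8.74, 4.88 and 4.52 CPM in the 5/6 Nx mice (3.02 ± 0.43, adjusted p = 0.000451). All 5/6 Nx mice were at least 3-fold above all Sham mice, at low levels. Cyp24a1, the receptor's own most inducible target, had too few counts to be tested. It was at 0, 0, 0 and 0.0791 CPM in the Sham mice and 0.189, 0.349, 0.353 and 0 CPM in the 5/6 Nx mice. Kl, the FGF23 co-receptor klotho, was at 0.424, 0.437, 0.361 and 0.356 CPM and 0.693, 0, 0 and 0 CPM, too few counts to be tested. Pth1r, the parathyroid hormone receptor, had a log2 fold change of 0.39 and was not a DEG. Of the 6 genes, 1 was upregulated (16.7%, against 15% of all genes) and 0 downregulated. The count of upregulated genes was 2 or 3 when any of 7 libraries (all but 5/6 Nx replicate 4) was left out, and 4 in DESeq2.

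The renin-angiotensin-aldosterone list had 5 upregulated and 2 downregulated genes of 12, against 15% and 7.18% of all genes. Agtr1a, the main angiotensin II receptor, was at 2.08, 1.92, 1.31 and 1.78 CPM in the Sham mice and 19.6, 4.01, 4.39 and 17.9 CPM in the 5/6 Nx mice (2.73 ± 0.56, adjusted p = 0.00345). Replicates 1 and 4 were several-fold above replicates 2 and 3, as the neuron markers were, and without them the log2 fold change was 1.301 (adjusted p = 0.00846). Agt, the precursor angiotensinogen, was upregulated (3.47 ± 0.56, adjusted p = 0.000952), and so was Cma1, the mast cell chymase that also cleaves angiotensin I (3.98 ± 0.50, adjusted p = 0.000241). Cma1 stands in the mast cell marker list as well. Nr3c2, the aldosterone receptor, fell from 20.1, 22.6, 31.7 and 16.7 CPM to 7.94, 5.20, 4.15 and 7.10 CPM (-1.86 ± 0.26, adjusted p = 0.000428). Ace, the converting enzyme, had a log2 fold change of -0.37 and was not a DEG.

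Genes that carry out the nitric oxide signal in smooth muscle were downregulated, while the endothelial enzyme was not called. Nos3, endothelial nitric oxide synthase, was at 72.2, 61.2, 79.6 and 76.7 CPM in the Sham mice and 79.6, 73.8, 75.4 and 77.1 CPM in the 5/6 Nx mice, with full overlap (0.13 ± 0.10, adjusted p = 0.332). Gucy1b1, a subunit of the receptor for nitric oxide, was at 181, 216, 202 and 217 CPM and 52.4, 16.1, 42.0 and 27.9 CPM (-2.51 ± 0.31, adjusted p = 0.000233). Its partner Gucy1a1 (-2.37 ± 0.33, adjusted p = 0.000458), the kinase Prkg1 (-1.35) and the phosphodiesterase Pde5a (-1.70) fell with it. Ddah1, which degrades the nitric oxide synthase inhibitor ADMA, rose from 0.539, 1.44, 1.04 and 0.553 CPM to 25.3, 10.5, 6.16 and 27.2 CPM (4.33 ± 0.56, adjusted p = 0.000289), and was at 3.29 without replicates 1 and 4. The summed smooth muscle markers were lower in the same mice.

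Both endothelin receptors, Ednra (1.37 ± 0.22, adjusted p = 0.000888) and Ednrb (3.03 ± 0.33, adjusted p = 0.000117), were upregulated, while Edn1, the peptide, had a log2 fold change of -0.83 and was not a DEG. In the prostanoid genes, Ptgs2, the inducible cyclooxygenase, was at 3.16, 7.25, 7.80 and 4.59 CPM in the Sham mice and 31.5, 45.9, 84.7 and 33.7 CPM in the 5/6 Nx mice (3.16 ± 0.38, adjusted p = 0.000198). Ptges (2.03), which makes PGE2, and Tbxas1 (2.01), which makes thromboxane, were upregulated. Ptgis, which makes prostacyclin, was at 1007 to 1174 CPM in the Sham mice and 248 to 427 CPM in the 5/6 Nx mice (-1.74 ± 0.18, adjusted p = 0.000102). Tbxa2r, the thromboxane receptor, was downregulated too (-2.22 ± 0.18, adjusted p = 2.87e-05). The combined list of 27 genes had 7 upregulated and 6 downregulated, against 15% and 7.18% of all genes.

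In haemostasis, F3, tissue factor, which starts clotting, was downregulated from 133, 86.7, 93.3 and 98.0 CPM to 50.7, 27.4, 27.2 and 48.2 CPM (-1.37 ± 0.24, adjusted p = 0.00162). Thbd, the endothelial anticoagulant thrombomodulin, had a log2 fold change of -0.51 ± 0.23, adjusted p = 0.0976, with overlapping groups, and was not a DEG. Serpine2, an inhibitor of thrombin and plasminogen activators, fell from 947, 929, 868 and 871 CPM to 296, 222, 329 and 207 CPM (-1.73 ± 0.16, adjusted p = 5.63e-05). F13a1, the fibrin-crosslinking factor of macrophages and platelets, rose from 29.4, 28.6, 27.3 and 22.1 CPM to 73.3, 159.8, 105 and 122 CPM (2.15 ± 0.21, adjusted p = 7.32e-05). F10 (3.35), Plau (1.82) and Plaur (1.68), clotting factor X, urokinase and its receptor, also rose. Of 22 genes, 6 were upregulated and 2 downregulated, where 15% and 7.18% of all genes were.

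Ahr, the receptor that binds tryptophan-derived uraemic solutes such as indoxyl sulfate, was at 1.97, 3.45, 4.42 and 3.52 CPM in the Sham mice and 12.99, 29.6, 20.2 and 15.9 CPM in the 5/6 Nx mice (2.62 ± 0.31, adjusted p = 0.000184). Its targets did not all follow. Cyp1b1, at 98.1, 114, 102 and 72.5 CPM and 73.4, 163, 116 and 93.8 CPM, was not a DEG (0.26 ± 0.23, adjusted p = 0.39), and Cyp1a1, the most inducible target, reached at most 0.180 CPM and was not tested. Tiparp (1.29), a target and repressor, and Aldh1a3 (1.77), which makes retinoic acid, were upregulated. Aldh3a1, a detoxifying dehydrogenase, was the downregulated member (-1.26 ± 0.43, adjusted p = 0.0373), with overlapping groups, and the list had 0 downregulated genes without Sham replicate 1, 2 or 3 or 5/6 Nx replicate 1, 2 or 4.

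Arg1, the arginase of alternatively activated macrophages, had one of the largest changes, from 0.0771, 0.262, 0.541 and 0.395 CPM in the Sham mice to 10.5, 50.5, 29.1 and 16 CPM in the 5/6 Nx mice (6.44 ± 0.64, adjusted p = 7.05e-05). The enzymes of creatine synthesis, which uses arginine, split: Gatm was upregulated (3.06 ± 0.42, adjusted p = 0.00038) and Gamt downregulated (-1.64 ± 0.21, adjusted p = 0.00027). Ornithine aminotransferase, Oat, was at the limit (-1.02 ± 0.09, adjusted p = 4.57e-05), and without 5/6 Nx replicate 4 the list had 1 downregulated gene. Odc1 (-0.34), the entry to polyamines, was not a DEG. In the lysosome, 6 of 33 genes were upregulated (18.2%, against 15% of all genes), led by Atp6v0d2 (4.49) and Ctsk (2.77), genes of osteoclasts and macrophages, and by Ctss (3.92 ± 0.42, adjusted p = 0.000111), the cathepsin of antigen-presenting cells. Ctss went from 9.36, 11.01, 8.25 and 6.44 CPM to 48.4, 226, 135 and 102 CPM. General lysosomal genes such as Lamp1 (-0.41) and Ctsd (0.13) were not DEGs. In the proteasome, 0 of 14 constitutive genes were DEGs (22.2% of all genes were), and 1 was lower at the adjusted p alone (20.2% of all genes were). Psmb8, an immunoproteasome subunit, was upregulated (1.16 ± 0.15, adjusted p = 0.000245). Psmb8 was at 0.97 without 5/6 Nx replicates 1 and 4, and without 5/6 Nx replicate 3 the proteasome list had 2 upregulated genes. Arg1, Ctss and the macrophage markers had the same order among the 5/6 Nx mice, from replicate 2 down through 3 and 4 to 1.

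Genes of the Notch pathway changed in both directions. Heyl, a target that smooth muscle expresses downstream of Notch3, was at 293, 231, 288 and 327 CPM in the Sham mice and 47.4, 35.9, 39.0 and 32.0 CPM in the 5/6 Nx mice (-2.83 ± 0.16, adjusted p = 1.22e-05). Hey2 fell as well (-1.54 ± 0.30, adjusted p = 0.00276). The endothelial ligand Dll4 (1.57 ± 0.22, adjusted p = 0.000461), the receptor Notch4 (1.09), also endothelial, and Nrarp (1.62 ± 0.28, adjusted p = 0.00135), a feedback target, were upregulated. Notch3 itself had a log2 fold change of -0.18 and was not a DEG. Of 16 genes, 6 were upregulated and 2 downregulated, against 15% and 7.18% of all genes, and 3 were upregulated under total-count scaling and 1 on log2(FPKM + 1). The endothelial markers Cdh5, Kdr and Emcn were upregulated and the smooth muscle markers downregulated in the same comparison, and their part in these values was not tested.

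Wnt genes changed in both directions, with 19 of 33 called (57.6%, against 22.2% of all genes) and 7 upregulated against 12 downregulated. Sost (ENSMUSG00000001494, chromosome 11, 101962458 to 101967015), which encodes the secreted Wnt inhibitor sclerostin, was at 1479.8, 1314, 956 and 1419 CPM in the Sham mice and 139, 43.8, 146 and 49.3 CPM in the 5/6 Nx mice. Even the nearest mice of the groups were more than 6-fold apart (-3.72 ± 0.43, adjusted p = 0.000153). Wif1, another secreted inhibitor, fell from 19.1, 27.3, 36.1 and 21.3 CPM to 1.83, 4.15, 5.63 and 2.77 CPM (-2.76 ± 0.33, adjusted p = 0.000196). The receptors Fzd1 (-1.06), Fzd2 (-2.01), Fzd7 (-1.69) and Fzd8 (-1.63) and the feedback target Nkd1 (-2.17) were downregulated. The ligands Wnt2 (2.85) and Wnt4 (2.67) and the inhibitors Dkk2 (2.86), Sfrp4 (2.47) and Sfrp5 (3.85) were upregulated. Sfrp5 was at 1.39, 1.92, 2.75 and 0.553 CPM and 53.7, 7.19, 8.30 and 22.6 CPM, highest in 5/6 Nx replicates 1 and 4, and its log2 fold change was 2.30 without them. Axin2, a general target of the pathway, had a log2 fold change of 0.09 and was not a DEG. Sclerostin is made by osteocytes and by vascular smooth muscle, and the osteocyte gene Dmp1 had too few counts to be tested. The summed smooth muscle markers were lower in every 5/6 Nx mouse. Like Sost, they were higher in 5/6 Nx replicates 1 and 3 than in 2 and 4. Their part in the Sost value was not tested.

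Ion channels and pumps that set smooth muscle tone had 11 downregulated and 4 upregulated genes of 26 (7.18% and 15% of all genes), with the lowest median of the lists, -0.90. Kcnmb1, the beta subunit that tunes the calcium-activated potassium channel to smooth muscle, was at 236, 263, 206 and 234 CPM in the Sham mice and 27.8, 18.5, 40.9 and 16.4 CPM in the 5/6 Nx mice (-3.12 ± 0.28, adjusted p = 4.57e-05). The pore subunit Kcnma1 was at 37.7, 46.4, 46.8 and 40.8 CPM and 20.2, 9.77, 13.8 and 13.74 CPM (-1.53 ± 0.20, adjusted p = 0.000328). The voltage-gated subunit Kcnab1 (-3.08), the calcium channel subunits Cacnb2 (-2.18) and Cacna2d1 (-1.54), the store release channel Itpr1 (-1.54) and the calcium pump Atp2a2 (-1.57) fell. Among the upregulated genes were Kcnk3 (1.29), Kcna5 (1.27) and Trpc6 (3.46), the last from at most 0.32 CPM in the Sham mice. Kcnj8, the pore of the ATP-sensitive potassium channel, had a log2 fold change of -0.03 and was not a DEG. The 8 smooth muscle markers were lower in the same mice, with a median log2 fold change of -2.55.

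**Figure D4:**
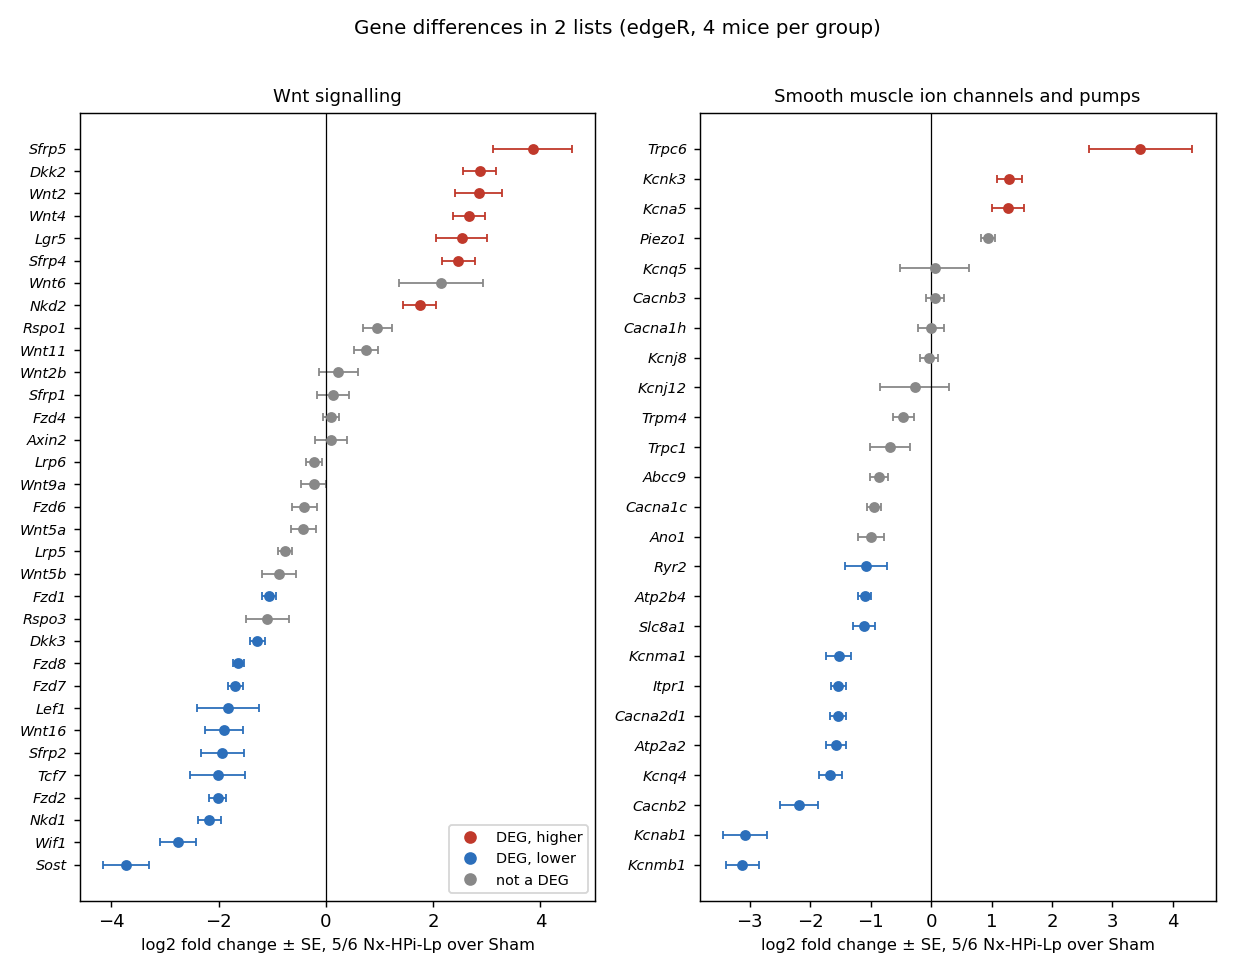
Log2 fold change of 5/6 Nx-HPi-Lp over Sham with its SE (x axis) for 33 genes of the Wnt list (left) and 25 of the 26 genes tested of the ion channel list (right), ordered by value; red marks upregulated DEGs, blue downregulated DEGs and grey the rest. Sost (-3.72) and Kcnmb1 (-3.12) are the lowest genes of their panels.

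Among protein-coding DEGs outside all lists, those with the lowest p are named. Chl1, a neural adhesion molecule, was at 0.732 to 1.31 CPM in the Sham mice and 46.4 to 79.3 CPM in the 5/6 Nx mice (5.88 ± 0.26). Also upregulated were Xdh, the xanthine oxidoreductase that makes uric acid (2.13 ± 0.12), and Ttc9 (4.09 ± 0.23). Ackr1 (3.06 ± 0.17), a chemokine receptor of venules, Pcdh1 (2.71 ± 0.15), a protocadherin, and Clec10a (3.09 ± 0.18), a lectin of macrophages and dendritic cells, followed. Sema3c, a guidance factor, was downregulated from 129.7, 154, 156 and 137 CPM to 25.7, 22.7, 25.5 and 23.9 CPM (-2.51 ± 0.10). Ogn, the small proteoglycan mimecan, was at 774 to 891 CPM and 49.7 to 91.2 CPM (-3.50 ± 0.20). Cytl1, a cytokine-like secreted protein (-3.17 ± 0.18), Map3k20 (-1.99 ± 0.11), Fam129a (-2.21 ± 0.12) and Ttc28 (-2.01 ± 0.10) fell as well. Adjusted p was 6.74e-06 for Sema3c and Chl1 and at most 1.22e-05 for the other ten. Without 5/6 Nx replicates 1 and 4, which had high neuron markers, the log2 fold change of Chl1 was 5.99.

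**Figure D5:**
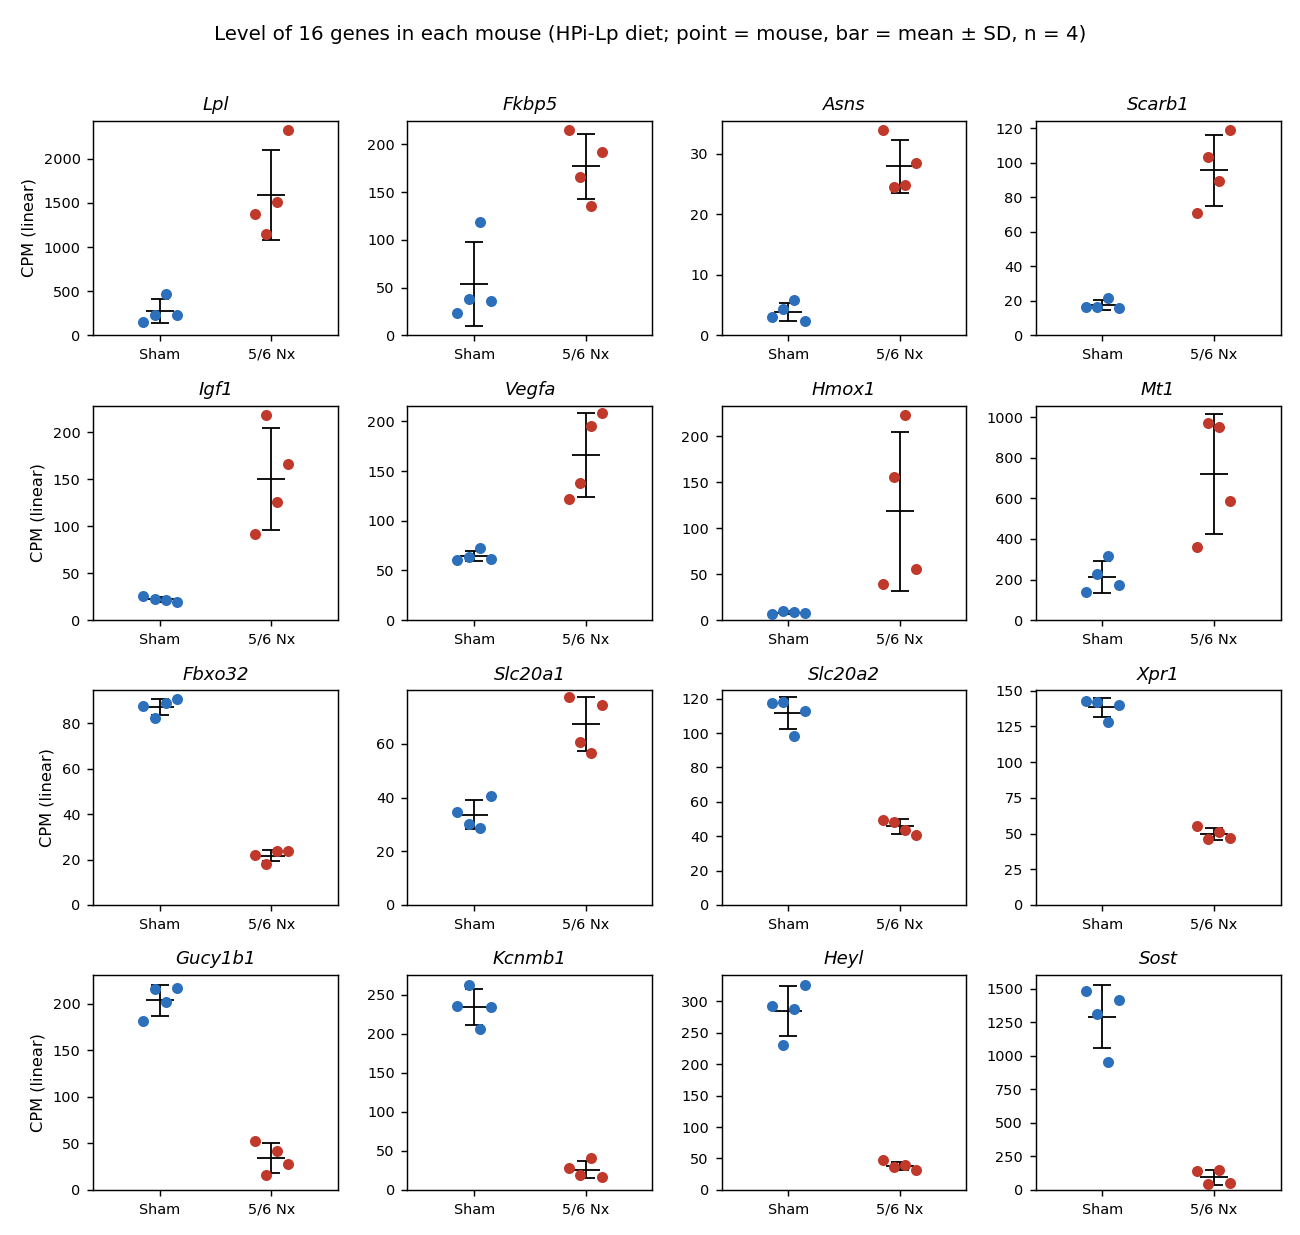
Level (CPM, linear axis) of 16 genes in each Sham mouse (blue) and each 5/6 Nx-HPi-Lp mouse (red); points are mice, and the black bar is the mean with its SD (n = 4 per group). The groups are apart in all 16 panels, and Sham replicate 3 is the nearest to the other group for Fkbp5 (119 CPM).

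The 5/6 Nx mice on the other diets are given beside these values without a test, as medians of 4 mice. Lpl was at 1531 CPM in 5/6 Nx-HPi-Hp mice and 1909.8 CPM in 5/6 Nx-LPi-Lp mice, and Fasn at 3686 and 11163 CPM. Mt1 was at 208 and 229.7 CPM, Hmox1 at 12.9 and 10.8 CPM, and Fkbp5 at 33.2 and 46.6 CPM. Asns was at 17.2 and 18.2 CPM, and ranged from 7.55 to 34.9 CPM on the HPi-Hp diet, which held 18% protein. Vegfa was at 165 and 161 CPM, and mt-Nd5 at 18442 and 16755 CPM. Slc20a1 was at 53.2 and 41.8 CPM, Slc20a2 at 61.4 and 87.7 CPM, and Xpr1 at 41.7 and 60.01 CPM. Sost was at 384 and 414 CPM, Kcnmb1 at 58.5 and 77.7 CPM, and Gucy1b1 at 49.1 and 70.2 CPM. Hmox1, Mt1, Fkbp5, Asns, mt-Nd5 and Slc20a1 had both medians below every 5/6 Nx-HPi-Lp mouse. For Hmox1, Mt1 and Fkbp5 even the highest mouse on these diets (14.7, 314 and 59.1 CPM) was below. For Asns, mt-Nd5 and Slc20a1 the highest HPi-Hp mouse (34.9, 29529 and 95.3 CPM) was above every 5/6 Nx-HPi-Lp mouse. Fasn, Slc20a2, Sost and Kcnmb1 had both medians above every 5/6 Nx-HPi-Lp mouse. Lpl and Vegfa had both medians within the range on the HPi-Lp diet. For Xpr1 the HPi-Hp median was below that range and the LPi-Lp median above it. For Gucy1b1 the HPi-Hp median was within the range and the LPi-Lp median above it. The mice of these 2 diets overlapped for Xpr1 (25.8 to 95.1 and 41.7 to 86.4 CPM) and Gucy1b1 (26.8 to 122 and 50.5 to 117 CPM).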

How the data were processed

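RNA from the aortas of 16 male C57BL/6J mice was sequenced as 1 library per mouse, and 8 libraries, 4 Sham and 4 5/6 Nx mice on the HPi-Lp diet, were compared. The authors aligned reads to mm10 with HISAT2 and deposited raw read counts per gene, made with featureCounts 1.5.0-p3. They also deposited FPKM values, which depend on gene length and library total. Strand and multi-read settings of the counting are not given in the sources used here, so near-identical and overlapping genes are uncertain.

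Counts of 54532 genes were filtered with filterByExpr, scaled by TMM and tested with edgeR 4.0.16 (glmQLFTest, R 4.3.3), which left 16513 genes. The SE is the log2 fold change divided by the square root of F. DEGs had an adjusted p of at most 0.05 and at least a 2-fold change. Alternatives used DESeq2 1.42.0 and limma 3.58.1 on log2(FPKM + 1) and log2(FPKM + 0.1), which understates the change of low genes. The fits were checked on simulated counts.

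The comparison, the 33 pathway lists and the 25 marker lists were chosen with earlier results of these data known. Named genes were a fixed set of 24 and, for each list, up to 2 DEGs of largest change in its majority direction and 1 in the other. Outside all lists, the 6 upregulated and 6 downregulated protein-coding DEGs of lowest p were named. Genes of the last 2 kinds had a mean of at least 50 counts in 1 group and no overlap, and other list members were named after their values were seen. Replicate numbers only name mice, and p-values measure the spread between mice of 1 experiment. Sequences were read from RefSeq promoters (GRCm38.p6). Some genes that these rules select are not reported here.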

Additional observations from a re-analysis of the deposited data

Results flagged for a closer look

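In 16 of 242 groups of 4 mice, 1 mouse lay so far from the rest that its gap to the nearest passed Dixon's limit at 95% for 4 values. Chance alone puts about 1 in 20 groups there. Among the 5/6 Nx mice, Arntl was at 17.1 CPM in replicate 3 (5.80 to 6.84 in the others). Gatm was at 34.7 CPM in replicate 1 (11.2 to 13.2). Trpc6 was at 3.49 CPM in replicate 2 (0.707 to 1.03). Replicate 4 had 33.0 CPM of Mvd (22.3 to 22.8), 63.0 CPM of Entpd1, the lowest of its group (92.7 to 97.3), 11588 CPM of white adipocyte markers (5574 to 6195) and 142 CPM of pancreas markers (13.9 to 24.0). Among the Sham mice, Hspa1a was at 198 CPM (35.5 to 46.1) and Hspa1b at 211 CPM (35.5 to 51.8) in replicate 2, where Ttc9 was lowest at 1.22 CPM (1.58 in each of the others). Sham replicate 3 was highest for Fkbp5 at 119 CPM (23.7 to 37.7), Igfals at 2.44 CPM (0.270 to 0.633), Scarb1 at 21.7 CPM (15.6 to 16.4), Gpx3 at 244 CPM (200.1 to 206) and Schwann cell markers at 44.3 CPM (31.1 to 32.7). Lung markers were at 3.36 CPM in Sham replicate 4 (2.12 to 2.32).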

How the results depend on the processing

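There were 3666 DEGs, 2480 upregulated and 1186 downregulated. When each mouse was left out in turn, the counts ran from 3413 to 4087, 2326 to 2700 and 1087 to 1387. Without a fold limit 7089 genes passed, 3753 higher and 3336 lower. On log2(FPKM + 1), limma called 2057, of which 1256 were upregulated. With the white adipocyte markers as a covariate edgeR called 0 genes, 0 upregulated and 0 downregulated (1875 at an unadjusted p under 0.05), and that score itself separates the groups. The summed neuron markers separate the groups as well. The neuron markers as a covariate gave 3901 DEGs, 2131 upregulated and 1770 downregulated, and ended the calls of 15 of the 96 named genes tested, among them Agtr1a (0.60), Mt3 (1.19) and Sfrp5 (1.43). Total-count scaling gave 2225 upregulated and 1540 downregulated genes and moved the median of all genes to -0.14; DESeq2 gave 3256 and 1390 and a median of 0.13. Under total-count scaling the medians of the glycolysis (-0.05), hypoxia (-0.12), IGF (-0.08), Notch (-0.08), aryl hydrocarbon receptor (-0.03) and proteasome (-0.03) lists were below 0, and DESeq2 turned those of the IGF (-0.07), phosphate (0.08) and arginine (0.10) lists. Single genes changed sign as follows, none of them called in either fit except Fkbp5 and Igfals: with the adipocyte covariate Thbd (0.38), Arntl (4.69), Fkbp5 (-1.36), Nos3 (-0.060) and Igfals (-0.93), with the neuron covariate Thbd (0.070), across the fits without 1 Sham mouse Dbp (-1.05 to 0.019, above 0 without Sham replicate 4), across those without 1 mouse of the 5/6 Nx group Fasn (-0.061 to 0.48, below 0 without replicate 3), and under total-count scaling Nos3 (-0.00697). The cause was not tested. Replicate numbers did not pair the mice: deviations of same-numbered mice correlated at 0.028, 0.105, -0.057 and -0.070, and the fit with the replicate number as a block called 3349 genes. Of 96 named genes tested, 89 were called, and 85 kept their sign and their side of the threshold in all 8 fits without 1 mouse. Library totals differed almost 4-fold, and thinning the counts to the lowest total left 3440 DEGs.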

Other observations

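Gene length was set beside the differences without a test. Protein-coding genes under 1 kb had a median log2 fold change of 0.11, those of 1 to 2 kb 0.08, of 2 to 4 kb 0.06, of 4 to 8 kb -0.02, and those over 8 kb -0.10. Markers of osteoclasts summed to 26.5 to 35.7 CPM in the Sham mice and 118 to 339 CPM in the 5/6 Nx mice. Acp5 and Ctsk were upregulated, and Calcr, Ocstamp and Dcstamp had too few counts to be tested. Neutrophil markers summed to 1.27 to 7.75 CPM and 16.4 to 69.3 CPM.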
